A study of Mus musculus with 2 samples.

Results

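Glucocorticoid receptor targets were examined in gastrocnemius (GAS) muscle, with Gde5 skKO mice set against WT mice. The set holds 10 genes, the receptor gene Nr3c1 and 9 genes known to respond to it, namely Fkbp5, Tsc22d3, Mt1, Mt2, Klf15, Zbtb16, Cebpd, Sgk1 and Ddit4. They were chosen by name, with earlier results of these arrays known, as every non-control probe on both arrays that carries the gene's symbol or an alias. Of the 10 genes, 9 had a probe and all 9 were measured, among 13590 measured genes in all. For short, the members of the set, Nr3c1 included, are called targets or receptor targets below. Zbtb16 had no probe under its name or aliases and was not analysed here. Because the choice was made with these ratios in view, the members' values are given as a description. Where a member is said to have passed a p-value threshold, that sorts the values and is not evidence about the set.

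The glucocorticoid receptor is held in the cytoplasm by Hsp90 and its co-chaperones until it binds corticosterone, the main glucocorticoid of the mouse. It then enters the nucleus, binds glucocorticoid response elements and switches genes on, and it also holds down many inflammatory genes. In skeletal muscle the receptor is known for restraining growth and favouring protein breakdown, amino acid release and the use of fat over glucose. Several of its targets also answer other signals. Metallothioneins are induced by zinc and other metals, Ddit4 by low oxygen and energy shortage, and Cebpd by inflammatory cytokines.

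Gde5, listed today as Gpcpd1, encodes a phosphodiesterase that splits glycerophosphocholine, and the Gde5 skKO mice lack it in skeletal muscle. They were male HSA-Cre;Gde5 flox/flox mice, in which the human skeletal actin promoter drives Cre in skeletal muscle fibres and exon 11 is flanked by loxP sites. WT denotes the control group, which per the study's methods for its other experiments were Gde5 flox/flox littermates without Cre. All were 15 weeks old and on a normal diet, and the labels name 5 mice, read here as 5 of each genotype, without saying whether their RNA was pooled. The paper describes arrays of muscle taken after a glucose injection and further expression data from fasted mice, and the labels do not say which of these conditions the 2 arrays hold, nor the hour of sampling. The 2 Agilent 2-colour arrays both set Gde5 skKO against WT, with the dyes swapped. Whether both hold the same condition is not stated, so a mean over both arrays may span 2 conditions. The Gde5 skKO RNA was labelled with Cy5 for array 1 and with Cy3 for array 2. Signal clear of background was seen at 53.2% (Gde5 skKO) and 45.6% (WT) of the spots of array 1, and at 44.6% and 47.4% of those of array 2. With 2 arrays, every value is of limited precision. Other cell types in muscle keep Gde5, and in whole muscle fewer cells of a type and less RNA per cell cannot be told apart.

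Each ratio is a log2 ratio of Gde5 skKO over WT, so that -1 stands for a halved signal. For a ratio of 1 array, the ± value is the error that the Feature Extraction software gives it. For a mean of both arrays, the ± value combines those 2 errors as if they were independent. Neither holds the spread between mice. Processed signals are in arbitrary units, and signals of different probes cannot be set against each other. A gene was called when the software's p-value was under 0.05 on both arrays with the same direction. By this rule 4 of the 9 measured targets were lower and 2 were higher, where 1.73% of all measured genes were called lower and 1.58% higher. Nothing is read from that contrast, since the same ratios were known when the genes were chosen. The median of their mean log2 ratios was -0.23, beside 0.01 over all measured genes. Within single arrays it was -0.38 (array 1) and -0.40 (array 2), beside 0.01 and 0.02. Of their 18 measured probes 5 were called lower and 2 higher, where 1.58% and 1.48% of 19073 measured probes were. Across genes, 7 targets had both Gde5 skKO signals below both WT signals, a pattern shown by 17.8% of all genes, and 2 had both above, a pattern shown by 21.0%.

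**Figure D1:**
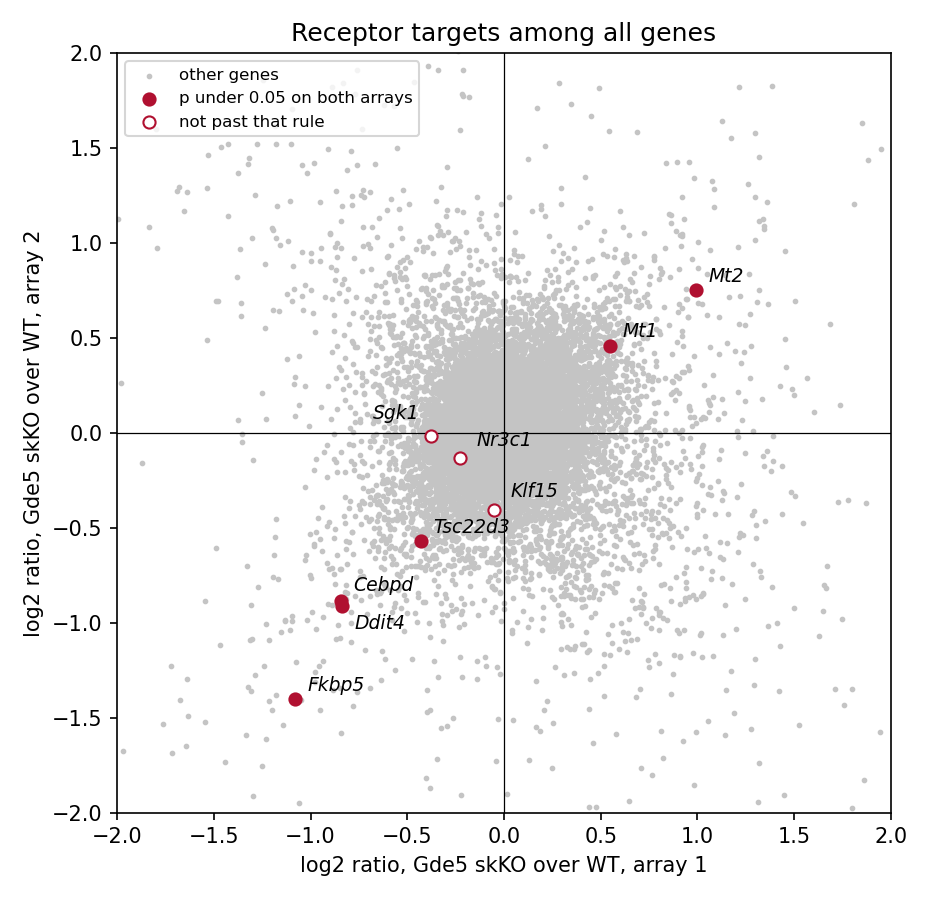
Log2 ratio of Gde5 skKO over WT on array 1 (horizontal) against array 2 (vertical) for 13590 genes in grey, with the 9 receptor targets in red, filled where p was under 0.05 on both arrays. Fkbp5, Cebpd, Ddit4 and Tsc22d3 lie in the lower left, Mt1 and Mt2 in the upper right, and Nr3c1, Sgk1 and Klf15 nearer to 0. There were 103 genes outside the plotted range.

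The deleted gene was read first as a check of the labels. Gpcpd1 has 4 probes under its older name Prei4. On both arrays 3 of them were far lower in Gde5 skKO, with ratios between -2.59 and -3.29, and 1 was at -0.05 and -0.47. Neither array went against its labels, and the place of these probes relative to exon 11 was not analysed here.

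Promoters show which of these genes carry the letters of the receptor's own element and which those of the metal response. RefSeq promoter windows were at hand for 7 of the 10 genes, 14 windows in all, with none for Cebpd, Zbtb16 or Nr3c1. The 250 bases before the annotated start were searched on both strands. The palindromic glucocorticoid response element was searched as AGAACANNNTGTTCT, and 3 of 32851 mouse windows held it (0.00913%). A relaxed form, GNACANNNTGTNC, was held by 0.387% of windows and includes every full match. The half-site AGAACA, which is part of the full element, was held by 16.1%. The core of the metal response element was searched as TGCACNC, held by 10.4%, and as TGCGCNC, held by 12.5%. Below, GRCm38 sequences are shown 5′ to 3′ in the direction of the gene, for the metallothionein pair, for the single target window with a full element, and for 2 targets that were lower in Gde5 skKO muscle. Capitals mark matches of the full, relaxed and metal forms.
Mt1, chr8:94178839-94179088, plus strand: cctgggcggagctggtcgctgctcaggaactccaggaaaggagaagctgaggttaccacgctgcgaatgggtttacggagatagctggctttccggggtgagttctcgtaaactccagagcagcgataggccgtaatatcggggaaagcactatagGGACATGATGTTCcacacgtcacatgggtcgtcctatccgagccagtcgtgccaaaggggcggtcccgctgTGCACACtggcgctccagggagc
Mt2, chr8:94172368-94172617, plus strand: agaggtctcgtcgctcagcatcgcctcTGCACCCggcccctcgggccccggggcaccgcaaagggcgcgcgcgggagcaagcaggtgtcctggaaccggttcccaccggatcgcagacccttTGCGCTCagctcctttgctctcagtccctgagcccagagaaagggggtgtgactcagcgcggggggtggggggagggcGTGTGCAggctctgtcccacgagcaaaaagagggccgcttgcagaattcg
Sgk1, chr10:21993640-21993889, plus strand: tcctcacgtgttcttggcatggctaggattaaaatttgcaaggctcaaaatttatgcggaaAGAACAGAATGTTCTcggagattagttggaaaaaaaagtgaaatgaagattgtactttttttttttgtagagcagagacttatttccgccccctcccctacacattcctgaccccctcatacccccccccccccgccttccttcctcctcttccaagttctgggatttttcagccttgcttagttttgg
Ddit4, chr10:59951771-59952020, minus strand: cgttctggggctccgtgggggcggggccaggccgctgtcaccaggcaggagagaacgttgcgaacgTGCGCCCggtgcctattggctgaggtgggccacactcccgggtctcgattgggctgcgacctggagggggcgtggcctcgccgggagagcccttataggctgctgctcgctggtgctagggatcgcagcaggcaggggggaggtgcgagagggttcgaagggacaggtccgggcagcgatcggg
Fkbp5, chr17:28486150-28486399, minus strand: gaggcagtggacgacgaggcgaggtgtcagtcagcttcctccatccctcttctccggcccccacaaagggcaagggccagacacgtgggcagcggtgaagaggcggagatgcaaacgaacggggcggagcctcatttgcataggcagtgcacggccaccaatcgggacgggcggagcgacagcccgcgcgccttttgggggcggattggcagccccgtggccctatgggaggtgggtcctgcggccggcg
The Sgk1 window is 1 of 6 for that gene, and its full element begins 189 bases before that start. Mt1 holds a relaxed element that begins 94 bases before the start and a metal core at 23 bases. Mt2 holds metal cores at 223, 128 and 50 bases and no relaxed element in this window. Ddit4 holds a metal core of the G form at 184 bases, and no match of these forms lies in the Fkbp5 window. Klf15 held a metal core of the G form. Half-sites, which the capitals do not mark on their own, were held by 2 targets. Of the 6 Sgk1 windows 3 held one, and the printed window has them at 242, 189 and 180 bases, the last 2 inside the full element. Of the 3 Tsc22d3 windows 1 held a half-site, at 185 bases. A match is a string of letters and does not show binding, and no match says only that these letters are not in this window.

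Nr3c1, which encodes the receptor itself, was measured by 4 probes on the minus strand of chromosome 18. The brightest gave 5146 (WT) and 4399 (Gde5 skKO) on array 1, and 5164 and 4705 on array 2. Both Gde5 skKO signals were below both WT signals by a small margin. Its ratios were -0.23 ± 0.21 and -0.13 ± 0.20, each close to its error. With normexp and loess in limma the ratios were -0.44 on array 1 and 0.06 on array 2. The size on array 1 and the sign on array 2 thus depend on the processing. The other probes ranged from -0.06 to -0.25, and none of the 4 was called.

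Fkbp5 encodes FKBP51, the co-chaperone that lowers the receptor's affinity for its hormone and is itself induced by the receptor, which closes a feedback loop. Its brightest probe, at 28165639 to 28165698 on the minus strand of chromosome 17 on mm8, the assembly of the array's annotation, gave 570.2 (WT) and 269.8 (Gde5 skKO) on array 1. On array 2 the same probe gave 572.0 and 216.7. The WT signals were almost equal and both Gde5 skKO signals were far below them. The ratios were -1.08 ± 0.23 and -1.40 ± 0.25, a mean of -1.24 ± 0.17 or 2.36-fold lower. By this probe 0.309% of all measured genes had a lower mean. The size depended on the probe and on the background correction. A probe that starts 38.1 kb further along the gene, at 28127522 to 28127581, had ratios of -0.43 ± 0.23 and -0.08 ± 0.22. A further, dim probe at 28128237 to 28128296, with signals of 34.7 to 62.1, had ratios of -0.53 ± 0.37 and -0.84 ± 0.41. All Fkbp5 ratios were below 0, but neither of these probes was called, and the mean over all 3 probes was -0.73. With normexp background correction and loess normalization in limma, the brightest probe had a mean of -0.75. By that value, or by the mean over all probes, Fkbp5 was closer to 0 than Ddit4, Cebpd and Mt2.

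Tsc22d3 encodes GILZ, a leucine zipper protein that carries part of the anti-inflammatory action of glucocorticoids. Its brightest probe, at 135886092 to 135886152 on the minus strand of chromosome X (mm8), gave 10313 (WT) and 7658 (Gde5 skKO) on array 1, and 12454 and 8377 on array 2. Both Gde5 skKO signals were below both WT signals. The ratios were -0.43 ± 0.21 and -0.57 ± 0.21, a mean of -0.50 ± 0.15. A neighbouring probe at 135886218 to 135886277 had ratios of -0.59 ± 0.21 and -0.45 ± 0.21 and was also called. The third probe, at 135886776 to 135886835, had -0.32 ± 0.21 and -0.22 ± 0.21 and was not called. All 3 probes thus had the same sign on both arrays. The gene's call was lost in limma's moderated test after Benjamini-Hochberg adjustment (adjusted p 0.105), where its mean ratio was -0.47. The call was lost too with p under 0.01 on both arrays, with p adjusted within each array and with a fold of at least 1.5. It was also lost (p 0.080) in the methods' t-test, an unpaired Student's t-test of the 2 Gde5 skKO against the 2 WT log2 signals. The paper names a Student's t-test for comparing 2 groups, without tying it to the arrays. As run here, it leaves out the pairing of the channels within an array.

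Cebpd encodes C/EBP delta, a transcription factor that takes part in the acute phase response, in adipocyte differentiation and in the induction of myostatin by glucocorticoids. Its probe, at 15801944 to 15802003 on the plus strand of chromosome 16 (mm8), gave 9935 (WT) and 5536 (Gde5 skKO) on array 1. On array 2 it gave 11244 and 6086. The groups did not overlap, and the ratios of -0.84 ± 0.22 and -0.89 ± 0.22 were nearly equal on both arrays. The mean was -0.86 ± 0.15, or 1.82-fold lower.

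Klf15 encodes a zinc finger factor that the receptor induces in muscle and that drives the breakdown of branched-chain amino acids. Its brightest probe, at 90440517 to 90440576 on the plus strand of chromosome 6 (mm8), gave 2857 (WT) and 2754 (Gde5 skKO) on array 1, and 3010 and 2274 on array 2. The ratios were -0.05 ± 0.20 and -0.40 ± 0.21. A dimmer probe at 90439701 to 90439760 had the larger ratio on the other array, with -0.46 ± 0.24 and -0.05 ± 0.24. All these ratios were below 0, but with normexp and loess in limma the brightest probe was at 0.01 on array 1. Neither probe was called, and the arrays differed by more than the error of a single ratio.

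Sgk1 encodes a kinase of the Akt family that the receptor induces and that acts on ion channels and on FoxO factors. Its probe at 21689000 to 21689059 on the plus strand of chromosome 10 (mm8) gave 23610 (WT) and 18189 (Gde5 skKO) on array 1. On array 2 it gave 22095 and 21875. The ratios were -0.38 ± 0.21 and -0.01 ± 0.20, which differ by more than the error of either, and the gene was not called. A second Sgk1 probe gave no signal clear of background and is not counted. Sgk1 is the target whose printed promoter holds the full element.

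Ddit4 encodes REDD1, an inhibitor of mTORC1 through which glucocorticoids slow protein synthesis in muscle. Its probe, at 59345095 to 59345154 on the minus strand of chromosome 10 (mm8), gave 8552 (WT) and 4786 (Gde5 skKO) on array 1. On array 2 it gave 8681 and 4613. WT signals were close to each other and Gde5 skKO signals were well below them. The ratios were -0.84 ± 0.22 and -0.91 ± 0.22, a mean of -0.87 ± 0.15 or 1.83-fold lower. Ddit4 and Cebpd had nearly the same ratio, and 0.817% and 0.861% of all measured genes had a lower mean.

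**Figure D2:**
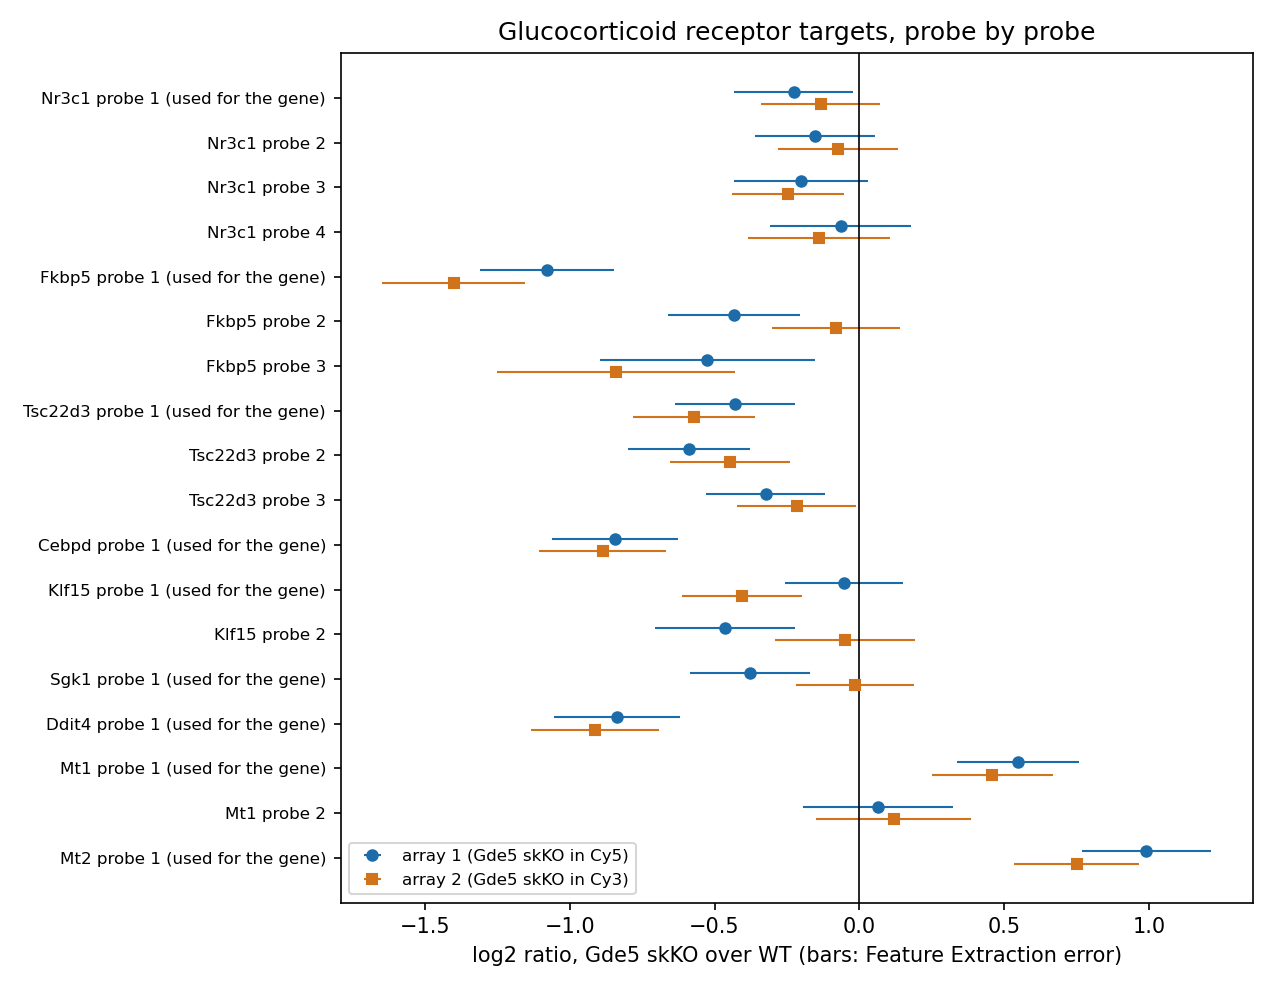
Log2 ratio of Gde5 skKO over WT (horizontal) for each of the 18 measured probes of the 9 receptor targets, with array 1 as blue circles, array 2 as orange squares and the Feature Extraction error of each ratio as bars. Of these probes, 15 were below 0 on both arrays and 3, all of metallothioneins, were above 0 on both, though normexp and loess in limma turned 1 array of a probe each of Nr3c1, Klf15 and Mt1.

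Mt1 and Mt2 encode metallothioneins, small cysteine-rich proteins that bind zinc and copper, and the receptor and the metal sensor MTF-1 both induce them. They lie next to each other on the plus strand of chromosome 8. The Mt2 probe, at 97062600 to 97062659 (mm8), gave 3358 (WT) and 6675 (Gde5 skKO) on array 1, and 3658 and 6156 on array 2. The groups did not overlap, and here Gde5 skKO was the higher one. Its ratios were 0.99 ± 0.22 and 0.75 ± 0.22, a mean of 0.87 ± 0.16 or 1.83-fold higher, and 99.3% of measured genes had a lower mean.

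The main Mt1 probe, at 97069240 to 97069299 (mm8), is spotted 10 times on each array. Its mean signals were 1768 (WT) and 2584 (Gde5 skKO) on array 1, and 1843 and 2531 on array 2. Over the 10 spots of array 1 the ratios ran from 0.49 to 0.64 with a median of 0.54 and an SD of 0.04. On array 2 they ran from 0.38 to 0.52 with a median of 0.46 and an SD of 0.05. Every spot was above 0, and the spots of each array lay closer together than the error of 0.21 that the software gives a ratio. Spots on 1 array share the same RNA, so this spread is that of the measurement alone. The mean was 0.50 ± 0.15, or 1.42-fold higher. The software's p-value was under 0.05 for 10 spots of array 1 and 8 spots of array 2, and the median p over spots was used for the call. A second Mt1 probe at 97069073 to 97069132, with signals of 103.7 to 131.1, had ratios of 0.07 ± 0.26 and 0.12 ± 0.27 and was not called, and on array 2 it was at -0.04 with normexp and loess in limma. With the mean over both probes, Mt1 was at 0.30. The Mt1 call was lost in limma's moderated test after Benjamini-Hochberg adjustment (adjusted p 0.123), where its mean ratio was 0.45. It was also lost with p under 0.01 on both arrays, with p adjusted within each array and with a fold of at least 1.5.

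**Figure D3:**
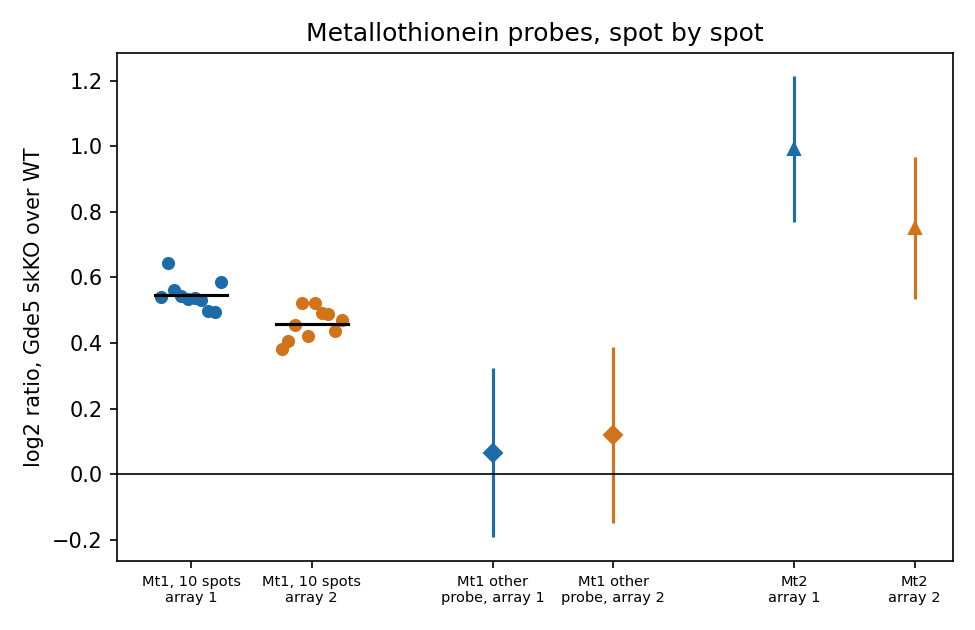
Log2 ratio of Gde5 skKO over WT (vertical) for the 10 spots of the main Mt1 probe on each array with their mean as a black line, and for the other Mt1 probe and the Mt2 probe with the Feature Extraction error as bars; array 1 is blue and array 2 orange. All 20 Mt1 spots lie between 0.38 and 0.64, below Mt2 at 0.99 and 0.75.

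**Figure D4:**
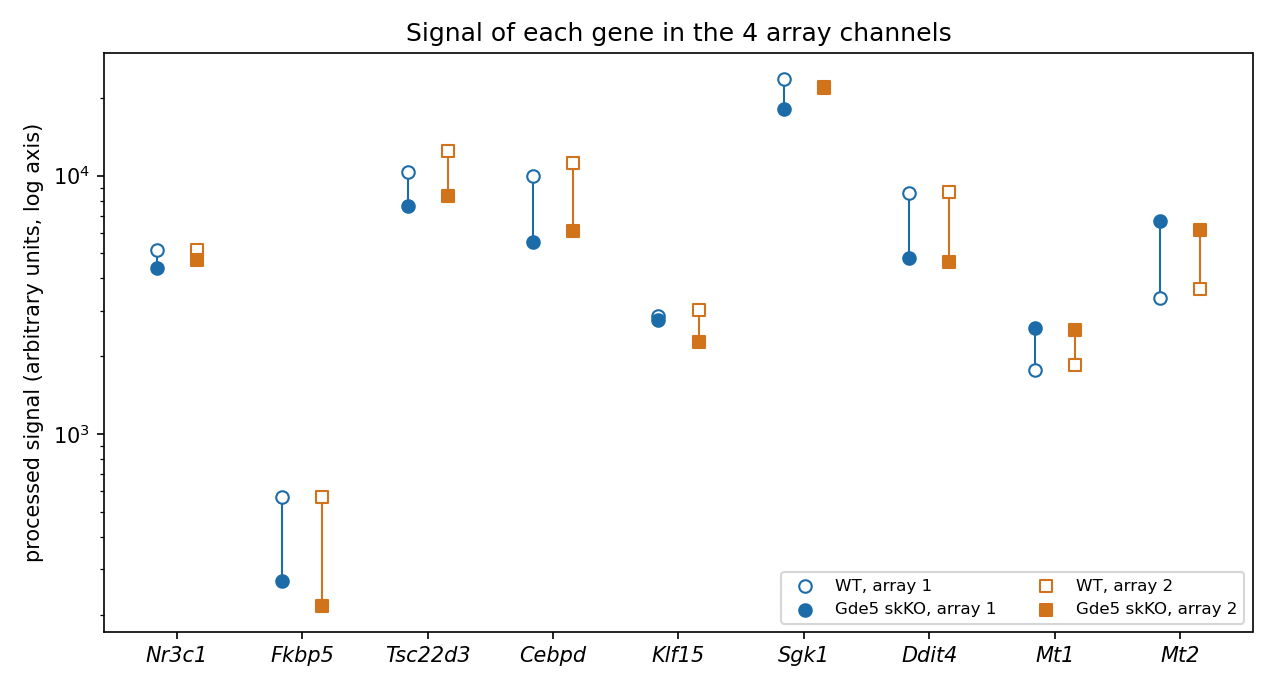
Processed signal in arbitrary units on a log axis for the gene's probe in the WT (open) and Gde5 skKO (filled) channel of array 1 (circles) and array 2 (squares), joined within an array. Fkbp5, Tsc22d3, Cebpd and Ddit4 drop from WT to Gde5 skKO on both arrays, and Mt1 and Mt2 climb on both. Sgk1 and Klf15, which were not called, lie further apart on array 1 and on array 2, in that order. Heights of different genes come from different probes and are not comparable.

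Paralogues of the targets were read because their probes bind related transcripts, and they were picked after the targets' values were known. Ddit4l, the muscle-rich relative of Ddit4, had ratios of -0.42 ± 0.21 and -0.21 ± 0.20. Cebpb, which like Cebpd is a receptor-responsive member of the C/EBP family, had -0.02 ± 0.20 and -0.07 ± 0.20, and Cebpa had -0.11 ± 0.23 and -0.07 ± 0.23. Tsc22d1, Tsc22d2 and Tsc22d4 had mean ratios of -0.06, -0.19 and 0.04. Mt3, a metallothionein of the nervous system measured here near background, had 0.21 ± 0.23 and 0.76 ± 0.25, and Mt4 had 0.09 ± 0.21 and -0.15 ± 0.22. Klf10 had 0.10 ± 0.20 and 0.42 ± 0.21, and Sgk3 had 0.44 ± 0.27 and 0.16 ± 0.26. The means of Cebpg and Klf13 were 0.08 and -0.24. The probes of some of these genes disagreed, with means over all probes of -0.05 for Ddit4l, -0.74 for Klf13, 0.25 for Tsc22d4 and -0.005 for Cebpg. With normexp and loess in limma, the mean of Sgk3 went from 0.30 to 0.05 and that of Mt3 from 0.48 to 0.15. Those of Klf13 and Tsc22d2 were then -0.14 and -0.11. Sgk2 was not well above background, and the median over the 14 measured paralogues was -0.04.

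The machinery that brings hormone to the receptor was given by a list of 22 genes of chaperones, steroid enzymes and cofactors. Of the 19 measured, 0 were called in either direction, with a median ratio of 0.05 beside 0.01 for all genes. On both arrays 7 were above 0 and 5 below, where 29.2% and 25.3% of all measured genes were. At an unadjusted p under 0.05, limma's moderated test gave 1 of them and the methods' t-test 1, where they gave 1155 and 1188 of all 13590 measured genes. Hsd11b1, which reactivates corticosterone inside cells, had ratios of -0.24 ± 0.21 and -0.10 ± 0.21. Hsd11b2, which inactivates it, and Nr3c2, the mineralocorticoid receptor, were not well above background. Fkbp4, the co-chaperone that favours the active receptor and competes with Fkbp5, had 0.41 ± 0.21 and -0.09 ± 0.21.

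Other genes that the receptor is known to induce in many tissues did not share 1 direction. Of the 24 measured among 27 listed, 4 were higher and 1 was lower, with a median of -0.05. On both arrays 8 were above 0 and 11 below, where 29.2% and 25.3% of all measured genes were. At an unadjusted p under 0.05, limma's moderated test gave 14 of the 24 in either direction and the methods' t-test 9, and after Benjamini-Hochberg adjustment limma gave 0. The lower one was Dusp1, a phosphatase of MAP kinases, at -0.58 ± 0.15. The higher ones were Rgs2, a regulator of G protein signalling, at 0.86 ± 0.16, the cell cycle inhibitors Cdkn1a at 0.84 ± 0.16 and Cdkn1c at 0.42 ± 0.15, and Angptl4, a lipoprotein lipase inhibitor, at 0.83 ± 0.15. With normexp and loess in limma, Cdkn1a was at 0.51. Per1, the clock gene that the receptor induces directly, had -0.71 ± 0.21 on array 1 and -0.22 ± 0.21 on array 2 and was not called. Klf9, a zinc finger factor induced in most tissues, had -0.35 ± 0.21 and -0.31 ± 0.21, but its 2 probes averaged 0.07.

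Targets tied to muscle breakdown and fuel use were called in both directions. Of the 18 measured among 20 listed, 2 were higher and 2 lower, with a median of -0.04. On both arrays 8 of them were below 0 and 2 above, where 25.3% and 29.2% of all measured genes were. Limma's moderated test gave 6 at an unadjusted p under 0.05 and 3 after Benjamini-Hochberg adjustment, and the methods' t-test gave 3 unadjusted. Mstn, which encodes the growth inhibitor myostatin, was lower at -0.78 ± 0.15, with 3698 and 3974 in WT against 2288 and 2186 in Gde5 skKO. Amd1, an enzyme of polyamine synthesis, was lower at -1.14 ± 0.16. Pdk4, the kinase that shuts off pyruvate oxidation, was higher at 0.70 ± 0.15, and Gpt, an alanine transaminase, at 0.50 ± 0.15. The ubiquitin ligases of muscle wasting were not called, with ratios of -0.26 ± 0.21 and -0.16 ± 0.20 for Trim63 and of -0.14 ± 0.20 and 0.16 ± 0.20 for Fbxo32. Foxo1, which drives both ligases, had -0.20 ± 0.21 and 0.25 ± 0.21. Glul, the glutamine synthetase, had -0.32 ± 0.21 and -0.58 ± 0.21 and was not called, and the mean over its 3 probes was -0.12.

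Of 20 listed genes that the receptor holds down, 11 were not well above background, among them Il6, Tnf and Il1b. Of the 9 measured, 0 were called, with a median of -0.03, and both limma's moderated test and the methods' t-test gave 0 at an unadjusted p under 0.05. The brightest, Col1a1, a collagen, had -0.12 ± 0.20 and 0.05 ± 0.20.

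Because Mt1 and Mt2 are also metal targets, the other genes of metal handling were listed. Of the 14 measured among 15 listed, 0 were higher and 1 was lower, with a median of -0.11, while limma's moderated test gave 4 and the methods' t-test 2 at an unadjusted p under 0.05. The lower one was Slc30a2, a zinc exporter, at -0.87 ± 0.16, and at -0.42 with normexp and loess in limma. Limma gave 0 of the 14 after Benjamini-Hochberg adjustment. Mtf1, the metal sensor, had -0.09 ± 0.21 and -0.17 ± 0.21. Slc30a1, the zinc exporter that MTF-1 induces together with the metallothioneins, had 0.18 ± 0.21 and -0.03 ± 0.21.

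Clock genes and immediate early genes move with hour and handling and are given for that reason. Of 14 measured clock genes, 0 were higher and 1 was lower, Hlf, a clock output factor, at -0.63 ± 0.15, with a list median of -0.17. Dbp, the brightest of them, had -0.60 ± 0.21 and -0.35 ± 0.21, and Nr1d1 had 0.37 ± 0.21 and 0.24 ± 0.21. The mean over the 3 Nr1d1 probes was 0.08. Of 17 measured immediate early genes, 0 were higher and 1 was lower, Ier3, at -0.73 ± 0.18, and at -0.25 with normexp and loess in limma. Fos had -0.36 ± 0.21 and -0.42 ± 0.21, and Nr4a1, the brightest, had -0.22 ± 0.20 and -0.50 ± 0.21. The median of this list was -0.18. At an unadjusted p under 0.05, limma's moderated test gave 6 clock genes and 4 immediate early genes, and the methods' t-test 2 and 4. Once adjusted by Benjamini-Hochberg, limma gave 0 clock genes and 0 immediate early genes. The part of clock and immediate early genes in the lower receptor targets was not tested.

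Markers of the cell types in the sample were read beside these results. Of 12 muscle markers, 0 were called, with limma's moderated test giving 3 and the methods' t-test 2 at an unadjusted p under 0.05, and a list median of -0.05. The brightest, Tnni2, a fast fibre troponin, had -0.12 ± 0.20 and -0.21 ± 0.20, and the list's summed signal was 855404 in WT against 868701 in Gde5 skKO on array 1, and 812187 against 810498 on array 2. Of 9 measured adipocyte markers 5 were lower, with a median of -0.69, or -0.33 with normexp and loess in limma, whose moderated test gave 6 and the methods' t-test 4 at an unadjusted p under 0.05. After Benjamini-Hochberg adjustment limma gave 2 of the 9 adipocyte markers. Adipoq, which encodes adiponectin, had -0.97 ± 0.22 and -1.03 ± 0.23. The means were, for Cfd, which encodes adipsin, -0.90 ± 0.16, for Retn -0.83 ± 0.18 and for Cidec -0.70 ± 0.15. With normexp and loess in limma, Retn was at -0.34. On both arrays 6 of the 9 were below 0 and 1 above, where 25.3% and 29.2% of all measured genes were. The one above was Lipe, at 0.27 ± 0.25 and 0.10 ± 0.27, and Thrsp had 0.18 ± 0.21 and -0.03 ± 0.21. The brightest probe, that of Fabp4, had 0.13 ± 0.20 and -0.02 ± 0.20. It made up 79.7% of the list's summed WT signal on array 1, and a sum over probes follows its brightest. That sum was 44724 in WT against 44233 in Gde5 skKO on array 1, and 46021 against 42051 on array 2. Without Fabp4 the sums were 9086 against 5366, and 8834 against 5283. Lep was not well above background. Cebpd, Tsc22d3 and Fkbp5 are also expressed in fat, and the part of fat cells in their ratios was not tested.

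Of 5 measured liver markers 2 were lower, the brightest, Mup1, at -0.97 ± 0.16 and Ahsg at -1.09 ± 0.18 (-0.50 with normexp and loess in limma), with a summed signal of 2868 in WT against 1552 in Gde5 skKO on array 1, and 2764 against 1601 on array 2. Apoa1, Apoa2, Ttr and Apoc3, defining liver transcripts, were not well above background. Of the measured markers not called, Alb had -1.03 ± 0.28 and -0.28 ± 0.29, and Trf had -0.28 ± 0.21 and -0.51 ± 0.22. Fgb went opposite ways on the arrays, with -0.80 ± 0.30 and 0.57 ± 0.31. The list median was -0.66, or -0.22 with normexp and loess in limma, whose moderated test gave 2 and the methods' t-test 2 at an unadjusted p under 0.05. Adjusted by Benjamini-Hochberg, limma's test gave 1 of the 5 liver markers. Of 8 leukocyte markers 0 were called by the rule and 0 by limma or the methods' t-test at an unadjusted p under 0.05. Their brightest, Lyz2, had -0.13 ± 0.20 and -0.34 ± 0.21, the list median was -0.12, and Cd68 and Itgam were not well above background. The summed leukocyte signal was 11580 in WT against 10817 in Gde5 skKO on array 1, and 11919 against 9811 on array 2. Of 8 endothelial markers 1 was higher, Kdr, a receptor for VEGF and the brightest of them, at 0.42 ± 0.15. The list median was 0.12, with 4 markers above 0 on both arrays and 3 below, where 29.2% and 25.3% of all measured genes were. Summed signals were 14064 in WT against 14993 in Gde5 skKO on array 1, and 14769 against 16190 on array 2. Without Kdr the sums were 10517 against 10210, now lower in Gde5 skKO, and 10864 against 11042. At an unadjusted p under 0.05, limma's moderated test gave 4 of the 8 endothelial markers and the methods' t-test 3. With Benjamini-Hochberg adjustment limma gave 0. Other list medians that normexp and loess in limma moved by more than 1.5 times or across 0 were those of the receptor machinery (-0.01), metal response (-0.05), immediate early (-0.12), muscle (0.0025), leukocyte (-0.06) and endothelial (0.04) lists.

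**Figure D5:**
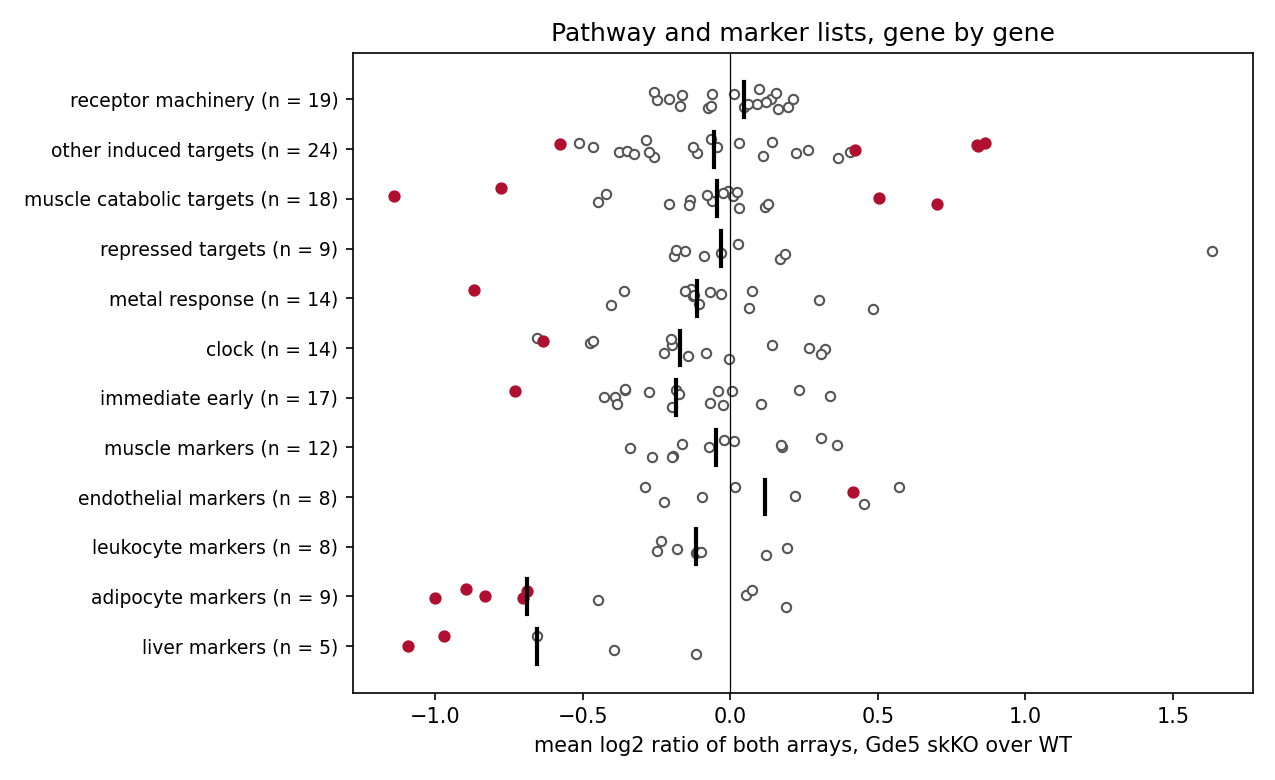
Mean log2 ratio of both arrays (horizontal) for each measured gene of 12 lists, filled red where p was under 0.05 on both arrays, with the list's median as a black bar. Called genes lie on both sides of 0 among the other induced and the muscle catabolic targets, while the adipocyte list has 5 called genes, all below 0.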

How the data were processed

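RNA of GAS muscle was hybridized to 2 dye-swapped Agilent arrays on 1 slide and in 1 scan, so neither could serve as a block. From the scans the authors made, with Feature Extraction 9.5.3.1, deposited log10 ratios of Cy5 over Cy3, background-subtracted and dye-normalized. Each deposited file also holds the software's p-value for every ratio and the intensity of both channels. Here the ratios were put on the log2 scale in the direction Gde5 skKO over WT, and the spots of a probe were averaged. Left out were control spots and those marked as outliers in signal or local background, 195 on array 1 and 221 on array 2 of 43379. Names came from RefSeq, through the accession for 24303 probes, the symbol for 6290 and a synonym for 2411, while 8065 kept the array's name. A gene stood for its brightest probe among those that both arrays found well above background in 1 or both channels.

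The members, the gene lists and the tests were chosen with earlier results of these data known, and the paralogues after the members' values were seen. Named were all members with every probe, Gpcpd1, up to 4 called genes in each direction of each list, the brightest and the undetected genes of marker lists, and Hsd11b1, Hsd11b2, Nr3c2, Fkbp4, Per1, Dusp1, Klf9, Trim63, Fbxo32, Foxo1, Pdk4, Glul and Mstn. Other genes named were chosen after their values were seen. Alternative ratios came from limma 3.58.1 (R 4.3.3), with normexp at an offset of 50, or no background correction, before loess, and wherever limma gives a p it is that of its moderated test. Python 3.11.15 was used with pandas 2.3.3, numpy 2.4.6, scipy 1.17.1 and, for plots, matplotlib 3.10.9.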

Additional observations from a re-analysis of the deposited data

How the results depend on the processing

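For the 9 receptor targets, no mean ratio over both arrays changed sign under the alternatives. Within single arrays, normexp and loess in limma turned the sign of Nr3c1 on array 2 (0.06), of Klf15 on array 1 (0.01) and of the second Mt1 probe on array 2 (-0.04). Of 36 ratios from other background correction, the series table or all probes, which carry no p of their own, 32 moved by less than the error, and the others were those of Fkbp5 (-0.75, -0.80 and -0.73) and of Mt1 over all probes (0.30). Of 54 comparisons with a p of their own, 45 kept the gene's side of the threshold, and each array alone kept it for every target. Tsc22d3 and Mt1 lost it after Benjamini-Hochberg adjustment of limma's moderated test, Tsc22d3 also in the methods' t-test, and all 6 called targets lost it in that test once adjusted. These p-values describe the members and are no evidence on their choice. With p under 0.01 on both arrays, 1 target was higher and 3 were lower, and the same numbers held with a fold of at least 1.5, with p adjusted within each array, and with limma's adjusted test. The methods' t-test gave 2 higher and 3 lower at p under 0.05, and 0 and 0 after Benjamini-Hochberg adjustment. Over all genes, p under 0.01 left 107 higher and 127 lower, adjustment within each array 50 and 76, and a fold of at least 1.5 gave 142 and 170. Limma's moderated test gave 575 higher and 580 lower unadjusted, and 39 and 68 adjusted. The methods' t-test gave 616 and 572, and 0 and 0 adjusted. Each array alone called 928 to 974 genes higher and 723 to 915 lower, since 1 p-value then decides, and 2 targets higher and 4 lower. The median ratio of the targets was -0.23 over the means of both arrays, and with single arrays left out it ran from -0.40 to -0.38. The median target was Sgk1 on array 1 (-0.38) and Klf15 on array 2 (-0.40). On the other array Sgk1 was at -0.01 and Klf15 at -0.05, so the mean of each lies nearer to 0. The cause of the other shifts was not tested. Each array is already a pair of both groups, so its ratio is a paired value and no further replicate block was fitted. Feature Extraction p-values describe spots within a hybridization. Those of limma and the t-test rest on the spread between 2 arrays that may hold the same RNA or different conditions. The spread between mice is thus not known.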
